A study of Drosophila melanogaster with 18 samples.

Results

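Mitochondrial ribosomal protein genes were taken as the genes whose current Drosophila melanogaster symbol starts with mRpL (large subunit) or mRpS (small subunit). Of 73 such symbols, 71 had a row among the 17402 genes of the count table, 47 for the large and 24 for the small subunit. The other 2, mRpS34 and mRpS5, had no row under their current identifiers and were not analysed here. RNA-seq counts came from 18 libraries in 6 groups of 3, made to follow how neurons and neural cells respond to loss of shep, an RNA-binding protein. Pupal neurons of stage P14 expressed shep RNAi, Dcr-2 and mCD8::GFP under elav, and their control expressed Dcr-2 and mCD8::GFP alone. Larval neurons, from the third instar, had the same pair of genotypes, and all neurons were sorted live. Every neuron group thus carried Dcr-2 and the membrane GFP, and the driver acts in all neurons. BG3 cells (BG3-c2), a line grown from nervous system tissue, received double-stranded RNA against shep or, as control, against GFP.

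Mitochondria make a few proteins of the respiratory chain and ATP synthase on their own ribosomes. The ribosomal RNAs of these ribosomes come from the mitochondrial genome, while every ribosomal protein is encoded in the nucleus, made in the cytosol and imported. A part of the proteins descends from bacterial ribosomal proteins and shares their numbers, and the rest was added during the evolution of mitochondria. In neurons, oxidative phosphorylation supplies most of the energy used at synapses.

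Library totals ran between 7392299 and 10607171 counts (pupal RNAi), 8548493 and 9445025 (pupal control), 9134690 and 10793289 (larval RNAi) and 9984725 and 12910603 (larval control). In BG3 cells they ran between 3651214 and 5081610 counts with shep dsRNA and between 3141100 and 3203392 with GFP dsRNA. The members together took 0.0426% ± 0.00169 of the counts in pupal RNAi and 0.0469% ± 0.00297 in pupal control neurons (SD, n = 3 each). The share was 0.0705% ± 0.00177 in larval RNAi, 0.0758% ± 0.00214 in larval control, 0.138% ± 0.00551 in BG3 shep dsRNA and 0.139% ± 0.0136 in BG3 GFP dsRNA libraries. The median member had 39 to 127 counts per neuron library and 52 to 87 per BG3 library, so single members were measured with few reads. Neuron markers summed to a median of 22500, 26000, 6880 and 6830 CPM (counts relative to library size, scaled as in each test) in pupal RNAi, pupal control, larval RNAi and larval control neurons. They summed to 148 and 126 CPM in BG3 cells with shep and GFP dsRNA, scaled apart from the neurons, and fne was at 0 with shep dsRNA. shep itself fell by 0.92, 1.44 and 1.08 on the log2 scale in pupal neurons, larval neurons and BG3 cells, with adjusted p of 3.7e-06, 4.93e-09 and 1.26e-06 (edgeR quasi-likelihood test).

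The members are short genes. Their merged exons measured a median of 783 bases, with a range of 327 to 2078, against a median of 2198 bases over 8659 genes tested in neurons. They lie on chromosome arms X (11 members), 2L (12), 2R (12), 3L (15) and 3R (21), with none on chromosome 4. The span of 40 members (56.3%) overlapped a protein-coding gene on the opposite strand, against 37.6% of 8139 protein-coding genes tested. Exonic bases were shared with another gene in 41 members, and 8 shared at least 20% of them with 1 other gene. Since the strand setting of the counting was not stated in the labels or headers, counts of those 8 (mRpL13, mRpL17, mRpL48, mRpL53, mRpS9, mRpS14, mRpS21 and mRpS24) are uncertain.

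Levels can be compared between members only per length, in TPM (counts per exonic base, relative to the sum over all genes) computed here from merged exon lengths. The members summed to 1980 ± 130 TPM in pupal RNAi, 2050 ± 37.0 in pupal control, 2540 ± 116 in larval RNAi and 2710 ± 29.6 in larval control neurons. BG3 cells had 2770 ± 58.9 TPM with shep dsRNA and 2550 ± 68.6 with GFP dsRNA (SD, n = 3 each). By share of counts the members were alike there, at 0.138% and 0.139%. Genes of the mitochondrial genome, which enter the TPM total, took 10.9% to 15.3% of it with shep dsRNA and 17.5% to 24.1% with GFP dsRNA. The ratio of the mean per large-subunit gene to the mean per small-subunit gene stayed close to 1, at 1.03 to 1.08 in pupal control and 0.942 to 0.981 in larval control libraries. mRpL33 had the highest level averaged over the 6 groups (138 TPM), followed by mRpL30 (82.4 TPM) and mRpL42 (70.7 TPM). mRpL33 had 200 ± 42.3 TPM in BG3 GFP dsRNA cells and 132 ± 22.3 TPM in larval control neurons, the highest mean of the 3 in both, though within the spread of mRpL30 in larval control neurons. mRpL30 had 76.5 ± 3.42 TPM in BG3 GFP dsRNA cells and 115 ± 11.9 TPM in larval control neurons, and mRpL42 had 89.9 ± 8.73 and 75.3 ± 4.19 TPM. In pupal neurons mRpL50 had the highest mean, at 74.7 ± 4.32 TPM in control and 87.1 ± 3.78 TPM in RNAi neurons. mRpL33 had 72.8 ± 10.1 and 68.1 ± 18.2 TPM there, so the means lay within its spread in control neurons. At the low end, mRpL21 averaged 10.0 TPM and mRpL34 averaged 7.05 TPM. mRpL34 did not pass the filter on low counts in the neuron and BG3 models. It passed in the model of all 18 libraries, where BG3 GFP dsRNA cells over larval control neurons gave an adjusted p of 0.16 (edgeR). mRpL20 did not pass in the BG3 model. mRpL53 passed in none and had 0 counts in all 18 libraries. All 829 of its exonic bases lie within exons of CG33155 on the same strand, a gene with 42 to 207 counts per neuron library and 0 to 1 per BG3 library. The 0 of mRpL53 therefore cannot be read as absence of its transcript, in neurons or in BG3 cells.

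**Figure D1:**
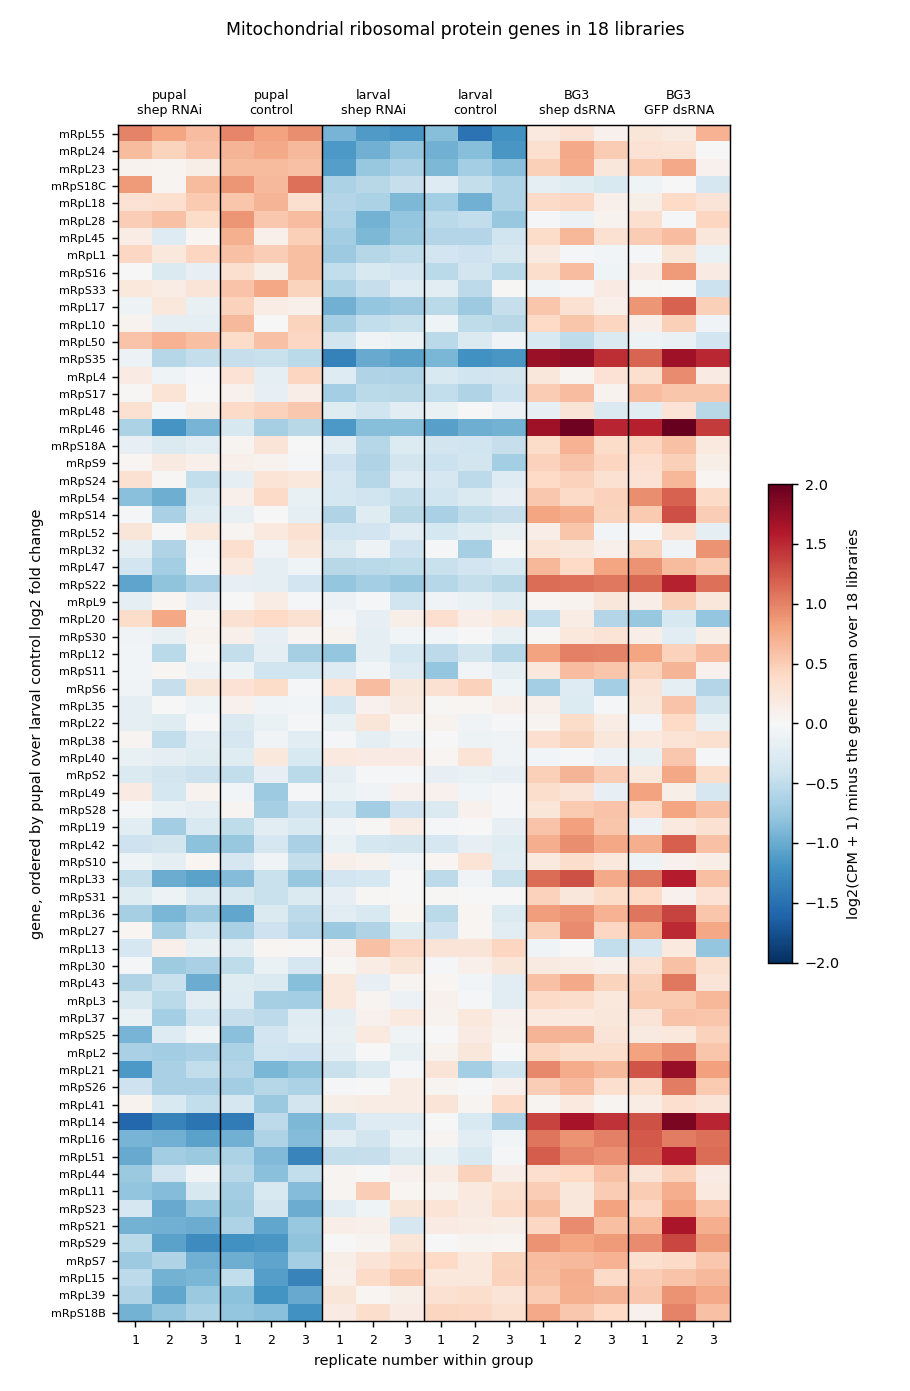
Level of each of the 69 members tested in neurons (rows) in the 18 libraries (columns), as log2(CPM + 1) minus the gene's mean over all libraries, with rows ordered by the log2 fold change of pupal over larval control neurons. Pupal libraries are red at the top and blue at the bottom, larval libraries are blue at the top, and BG3 libraries are red for most rows.

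Development was compared in control neurons, pupal over larval, with 69 members tested. The family split: 26 members rose and 23 fell at an adjusted p under 0.05 (edgeR quasi-likelihood test with Benjamini-Hochberg adjustment over all genes). Among all 8784 genes tested, 39.0% rose and 44.3% fell, so the shares of 37.7% and 33.3% among members were no higher than the background. The other 20 members were not called. The median member changed by -0.14 and the median gene by -0.17 on the log2 scale, and members ranged from -1.73 to 2.43. Each subunit held rises and falls, with 16 members higher and 15 lower of 45 in the large subunit, and 10 higher and 8 lower of 24 in the small one. So did both kinds of number, with 14 higher and 12 lower of 40 members that carry bacterial-type numbers (up to 36 in the large and 21 in the small subunit) and 12 higher and 11 lower of 29 with higher numbers.

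These splits depend on how the libraries are scaled. With scaling by total counts alone, without TMM factors (an alternative added after seeing the data), the median of all genes moved by -0.75. Then 6 of 69 members rose and 43 fell, where 2272 of all 8784 genes tested rose and 5414 fell. By subunit, the members' calls were 5 higher and 28 lower in the large one, and 1 higher and 15 lower in the small one. Relative to the median gene the members' median was 0.03 with TMM factors and 0.02 without them. It was 0.16 with TMM factors and the trend of each library with gene length removed. In the TMM scaling 36 of the 69 members lay above the median gene. The 6 members that rose under both scalings were mRpL55, mRpL24, mRpL23, mRpS18C, mRpL18 and mRpL28. The shorter list of falls described next also held under both.

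mRpL55 (3R:19094394-19094905 of dm6, 456 exonic bases) encodes a large-subunit protein with no bacterial counterpart. It had 12.4, 10.8 and 11.5 CPM in pupal control neurons, against 2.82, 1.48 and 1.96 CPM in larval control neurons. Every pupal library was above every larval one, and the log2 fold change was 2.43 ± 0.20 (SE; adjusted p = 4.74e-11), the highest of the family. mRpL24 (2L:4944256-4945361), whose bacterial counterpart is among the first proteins to join the large subunit during assembly, had 19.9, 20.8 and 18.8 CPM in pupal and 5.75, 6.17 and 4.71 CPM in larval control neurons. Its log2 fold change was 1.84 ± 0.14 (adjusted p = 1.25e-11), again with no overlap. mRpL23 (3L:2372844-2373704), the counterpart of a bacterial protein at the exit of the nascent peptide tunnel, had 13.5, 13.5 and 12.8 CPM in pupal and 4.09, 4.85 and 4.20 CPM in larval control neurons. The groups were well apart and the log2 fold change was 1.60 ± 0.16 (adjusted p = 1.79e-09). mRpL18, whose bacterial counterpart binds 5S ribosomal RNA, averaged 15.7 ± 2.20 CPM in pupal and 5.95 ± 0.826 CPM in larval control neurons (log2 1.39). mRpL28 averaged 18.4 ± 2.78 CPM in pupal and 7.03 ± 0.822 CPM in larval control neurons (log2 1.39; SD, n = 3 each).

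The 6 named falls lay between -1.73 and -1.10 with TMM factors and between -2.48 and -1.85 without them, where the 6 named rises lay between 1.39 and 2.43 and between 0.64 and 1.68. mRpS7 (2L:10386662-10387652), which corresponds to the bacterial protein that organises the head of the small subunit, had 9.81, 9.10 and 11.9 CPM in pupal control neurons, against 26.6, 23.0 and 26.7 CPM in larval control neurons. All pupal libraries lay below all larval ones, with a log2 fold change of -1.31 ± 0.13 (adjusted p = 2.55e-09). mRpL39 (3L:14997981-14999666), a protein specific to mitochondrial ribosomes, had 7.54, 5.55 and 6.32 CPM in pupal and 17.4, 17.7 and 16.3 CPM in larval control neurons. Its log2 fold change was -1.40 ± 0.15 (adjusted p = 3.82e-09), without overlap. mRpL15 averaged 3.81 ± 1.54 CPM in pupal and 10.0 ± 1.01 CPM in larval control neurons (log2 -1.39). mRpS29, the fly counterpart of the GTP-binding protein that human studies call DAP3, averaged 4.81 ± 0.829 CPM in pupal and 11.1 ± 0.111 CPM in larval control neurons (log2 -1.20). mRpS21 averaged 3.37 ± 0.642 CPM in pupal and 7.23 ± 0.230 CPM in larval control neurons (log2 -1.10), but 48.0% of its exonic bases are shared with CG8870.

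The 3 members named after bacterial S18 differed among themselves. In mammals the 3 corresponding proteins sit at separate places in the ribosome, and the counterpart of mRpS18A belongs to the large subunit. mRpS18C (3R:30423974-30424556) had 7.96, 6.54 and 9.20 CPM in pupal control neurons, against 3.11, 2.50 and 2.17 CPM in larval control neurons (log2 1.59 ± 0.23, adjusted p = 6.83e-07). mRpS18B (2L:20096329-20097253) went the other way, with 1.85, 1.71 and 1.10 CPM in pupal and 5.41, 5.24 and 4.85 CPM in larval control neurons (log2 -1.73 ± 0.25, adjusted p = 7.37e-07). Neither gene's groups overlapped, and both calls held without TMM factors, at 0.84 for mRpS18C and -2.48 for mRpS18B. mRpS18A, named here after its values were seen, averaged 8.63 ± 0.945 CPM in pupal and 5.75 ± 0.306 CPM in larval control neurons. Its log2 fold change was 0.58 (adjusted p = 0.00202) with TMM factors but -0.17 (adjusted p = 0.335) without them.

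**Figure D2:**
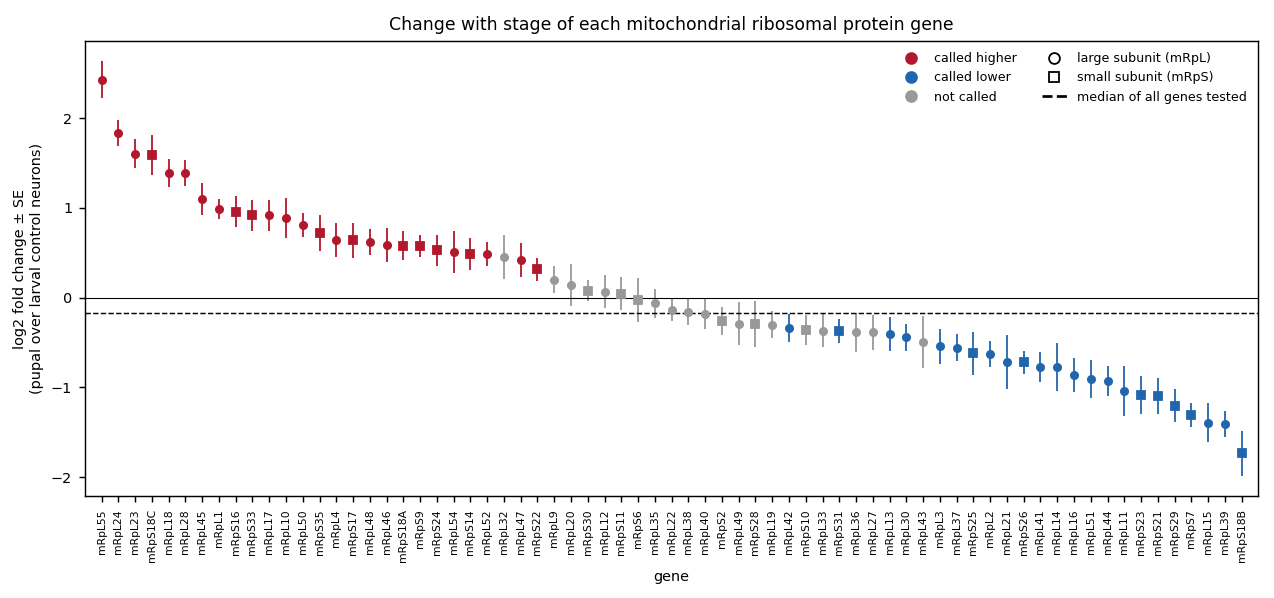
Log2 fold change of pupal over larval control neurons with its SE for each of the 69 members tested, in descending order (circles large subunit, squares small subunit). Red marks the 26 members called higher, blue the 23 called lower and grey the 20 not called, and the dashed line is the median of all genes at -0.17.

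Genes that work with the mitochondrial ribosome were set beside it, from lists chosen with earlier results of these data known. Of 73 nuclear genes of the respiratory chain and ATP synthase, 70 rose in pupal over larval control neurons (median log2 1.84, with 68 of 73 higher without TMM factors). Of 16 genes of the mitochondrial genome, 16 rose (median 1.79, with 13 of 16 higher without TMM factors). Of 80 cytosolic ribosomal protein genes, 79 fell (median -1.77, with 79 of 80 also lower without TMM factors). The members' median of -0.14 lay between these groups. The interquartile range of the members was 1.15, against 0.67 for the respiratory genes and 0.97 for the cytosolic ribosomal protein genes. The median SE was also larger for members, at 0.177 against 0.107 and 0.093. Other ranges were wider than the members', at 1.27 for mitochondrial translation factors, 1.41 for tRNA charging, 1.47 for mitochondrial DNA and RNA and 2.65 for all genes tested. Among 18 genes that charge mitochondrial tRNAs, 3 rose and 11 fell (median -0.86), and among 14 genes of mitochondrial DNA and RNA metabolism, 2 rose and 10 fell (median -1.50). Without TMM factors 2 rose and 15 fell of the tRNA charging genes (median -1.61), and 0 rose and 11 fell of the DNA and RNA genes (median -2.25). TFAM, which packages mitochondrial DNA and acts in its transcription, fell by 1.88. mtSSB, the single-stranded DNA binding protein of mitochondrial DNA replication, fell by 3.67. Of 8 mitochondrial translation factors 3 rose and 2 fell, and elongation factors went both ways, with mEFG1 at 0.80 and mEFTu1 at -0.58 on the log2 scale. Without TMM factors none of these 8 rose and 4 fell.

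Structural proteins of the same ribosome with other symbols were also mixed. tko, the counterpart of the bacterial decoding-site protein S12, rose by 1.59 (adjusted p = 5.85e-10) and by 0.84 without TMM factors. CRIF rose by 0.60 (adjusted p = 3.85e-05), but stood at -0.16 and was not called without TMM factors. bonsai, the counterpart of S15, stood at -0.27 (adjusted p = 0.174), and fell by 1.03 without TMM factors. Markers of neuroblasts summed to a median of 9.24 CPM in pupal and 256 CPM in larval control neurons, with all 5 detected in both. Markers of dividing cells summed to 6.54 and 587 CPM, with all 10 detected in both. Glial markers summed to 94.6 and 40.0 CPM and hemocyte markers to 351 and 47.4 CPM, with NimC1 and eater at 0 in pupal control neurons. Glial markers went both ways, with 2 higher and 3 lower of 5 tested (median log2 -2.08) and repo, the defining one, at -3.16. Hemocyte markers did too, with Pxn at 3.19 and crq at 2.61 but srp at -3.86 among 3 tested. So did neuron markers, with 5 higher and 2 lower of 7 tested and elav at -1.20. The part of these cells in the changes with stage was not tested, and in bulk RNA fewer cells of a type and less RNA per cell cannot be told apart.

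The question in pupal neurons was what reduced shep does to the family. No member rose and 3 of 69 fell, against a background of 3.48% higher and 4.17% lower over all genes tested, so the members' 4.35% was near the background. Without adjustment, at p under 0.05, 0 members stood higher and 11 lower, where 11.0% and 11.4% of all genes did. The median member stood at -0.10 and the median gene at 0.01 on the log2 scale, with 43 of 69 members below 0. The large subunit had a median of -0.11 and the small subunit 0.03. Relative to the median gene the members' median was -0.102, and -0.048 with the trend of each library with gene length removed. In TPM the members' median log2 ratio was -0.022, with 32 above 0, where that of all genes was 0.066. Neuron markers summed to 22300 to 23800 CPM in pupal RNAi and 22900 to 27200 CPM in pupal control neurons, and their part in the members' values was not tested.

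mRpS22 (3R:27916908-27918248, 1341 exonic bases), a small-subunit protein specific to mitochondrial ribosomes, had 7.99, 9.74 and 11.1 CPM in pupal RNAi neurons, against 15.9, 15.5 and 13.3 CPM in pupal control neurons. The groups did not overlap, and the gene fell by 0.65 on the log2 scale (SE 0.15, adjusted p = 0.00763). The call was lost without pupal RNAi replicate 1. mRpL23 had 8.61, 8.65 and 9.17 CPM in pupal RNAi neurons, against 13.5, 13.5 and 12.8 CPM in pupal control neurons. It fell by 0.59 (SE 0.16, adjusted p = 0.0257) with wide separation between the groups. That call was lost without pupal RNAi replicate 1 or 2, or without pupal control replicate 1 or 3, with log2 values between -0.62 and -0.58 over all libraries left out. mRpL54, below the level asked of named genes and so named after its values were seen, had 1.87, 1.65 and 3.18 CPM in pupal RNAi neurons, against 4.55, 5.69 and 3.57 CPM in pupal control neurons. It fell by 1.08 (SE 0.28, adjusted p = 0.0184), but was not called by DESeq2 or without pupal RNAi replicate 1 or 2 or pupal control replicate 2. Without pupal RNAi replicate 1 no member was called, and without pupal RNAi replicate 2 only 1 was. Calls over all genes moved too, from 319 to 895 over the fits with 1 library left out.

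Some other lists in the same comparison gave higher shares of falls, and others gave none. Of 80 cytosolic ribosomal protein genes 41 fell (median -0.32) and of 73 respiratory genes 20 fell (median -0.20), among them blw, a subunit of ATP synthase, at -0.82. The elongation factor mEFTu1, which brings charged tRNA to the mitochondrial ribosome, was the only 1 of 8 translation factors that fell, by 0.67 (adjusted p = 0.00531). Tim17b and Tom20, parts of the membrane translocases that import nuclear-encoded proteins, fell by 0.59 and 0.56, 2 of 8 import genes. None of 18 tRNA charging genes and none of 14 genes of mitochondrial DNA and RNA metabolism passed the edgeR test, while 0 and 1 of them had an unadjusted p under 0.05. Nor did any of 16 genes of the mitochondrial genome or 7 mitochondrial chaperones and proteases pass. Of 10 transcriptional regulators 0 fell and 2 rose, Myc by 0.55 and Mnt by 0.32 (adjusted p = 0.0089 and 0.0347, edgeR). tko at -0.15, bonsai at 0.13 and CRIF at -0.05 were not called. The pupal control libraries serve in both the RNAi and the stage comparison, so the values of a gene in them are not independent: mRpL23 stood at -0.59 for RNAi and 1.60 for stage, mRpS22 at -0.65 and 0.32, and mRpL54 at -1.08 and 0.51, where the stage values of mRpS22 and mRpL54 turn to -0.43 and -0.24 without TMM factors.

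In larval neurons no member was called with shep RNAi by edgeR, DESeq2 or limma-voom, where 0.171% of all genes were higher and 0.194% lower by edgeR. Without adjustment, at p under 0.05, 0 members stood higher and 3 lower, where 4.35% and 4.34% of all genes did. The median member stood at -0.07 against -0.005 for the median gene, with 44 of 69 below 0. Relative to the median gene the members' median was -0.069, and -0.042 with the trend of each library with gene length removed. In TPM the members' median log2 ratio was -0.097, with 21 above 0, where that of all genes was -0.037. mRpS22 had 9.88, 10.8 and 10.1 CPM in larval RNAi neurons and 11.9, 12.5 and 11.6 CPM in larval control neurons. The groups did not overlap, but its log2 fold change of -0.23 ± 0.13 did not pass (adjusted p = 0.664). mRpL23 averaged 4.26 ± 0.862 CPM in larval RNAi and 4.38 ± 0.410 CPM in larval control neurons, which overlapped. mRpL54 averaged 2.84 ± 0.138 CPM in larval RNAi and 3.23 ± 0.308 CPM in larval control neurons, also overlapping.

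The pupal response minus the larval response was tested directly. No member differed by edgeR, DESeq2 or limma-voom, against 0.102% of genes higher and 0.262% lower by edgeR. Without adjustment, 2 members stood higher and 4 lower at p under 0.05, where 5.08% and 5.36% of all genes did, and the median difference was -0.02. The call of mRpS22, mRpL23 and mRpL54 in pupal and not in larval neurons is therefore no evidence that their responses differ between the stages. Nor were their responses shown to be alike. For mRpL23 the difference was -0.55 (SE 0.24, unadjusted p = 0.0314, adjusted p = 0.423, edgeR).

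**Figure D3:**
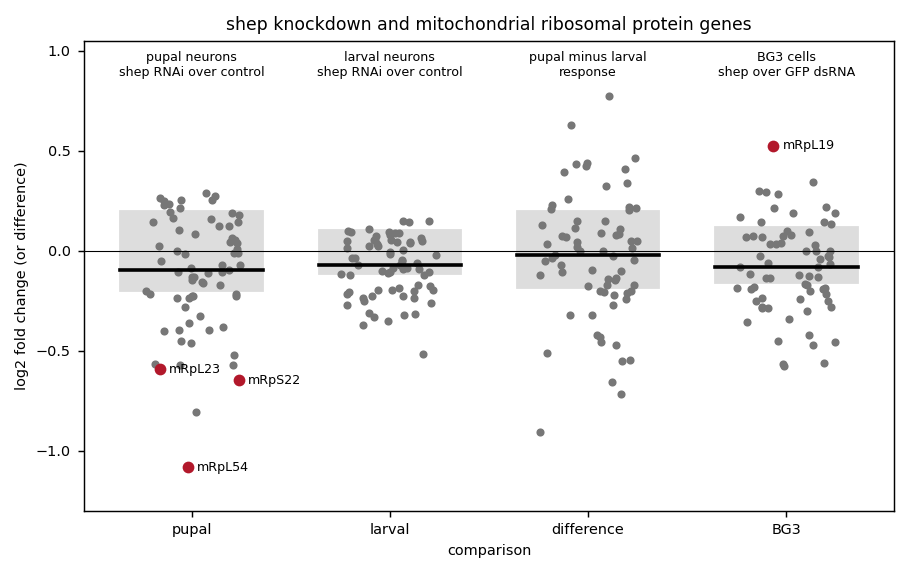
Log2 fold change of each member tested after shep knockdown in pupal neurons, larval neurons and BG3 cells, and the difference between the pupal and larval responses. Grey boxes span the middle 50% of all genes tested, black lines are the members' medians, and red points are the 4 members called.

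BG3 cells with shep dsRNA were set against cells with GFP dsRNA, with 68 members tested. mRpL19 rose and no member fell, where 3.35% of all genes were higher and 2.07% lower. Without adjustment, 3 members stood higher and 4 lower at p under 0.05, where 9.87% and 9.17% of all genes did, and DESeq2 and limma-voom called none. The median member stood at -0.081 and the median gene at -0.015 on the log2 scale, with 43 of 68 members below 0. Relative to the median gene the members' median was -0.067, and -0.019 with the trend of each library with gene length removed. In TPM the sign turned, with a median log2 ratio of 0.098 and 45 members above 0, where that of all genes was 0.161. mRpL19 (3R:8674109-8675196), whose bacterial counterpart lies at the interface of the subunits, had 26.2, 31.3 and 26.0 CPM with shep dsRNA, against 16.0, 19.9 and 21.7 CPM with GFP dsRNA. The groups did not overlap and the log2 fold change was 0.52 ± 0.15 (adjusted p = 0.0413). The call held without GFP dsRNA replicate 2 and was lost when any other single library was left out, with values from 0.41 to 0.63. Its response in BG3 cells exceeded that in pupal neurons by 0.59 (adjusted p = 0.409) and that in larval neurons by 0.45 (adjusted p = 0.752). No member differed in these contrasts, which were added after seeing the data.

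mRpS22, mRpL23 and mRpL54 were not called in BG3 cells. mRpS22 had 56.2, 55.5 and 53.3 CPM with shep dsRNA, against 58.1, 76.0 and 56.1 CPM with GFP dsRNA. GFP dsRNA replicate 2 was the highest of the 6. That library also gave members 0.155% of its counts, against 0.131% to 0.132% in the other GFP dsRNA libraries and 0.133% to 0.144% with shep dsRNA. mRpL23 averaged 17.1 ± 3.31 CPM with shep dsRNA and 17.1 ± 4.15 CPM with GFP dsRNA. No member was called in more than 1 of the 3 knockdown comparisons. Genes of the mitochondrial genome took 7.53% to 10.1% of the counts with shep dsRNA and 12.7% to 17.7% with GFP dsRNA, and 4 of 21 of them fell. The part of this difference in the members' values was not tested. With those genes and rRNA genes removed, the members' calls were as before.

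**Figure D4:**
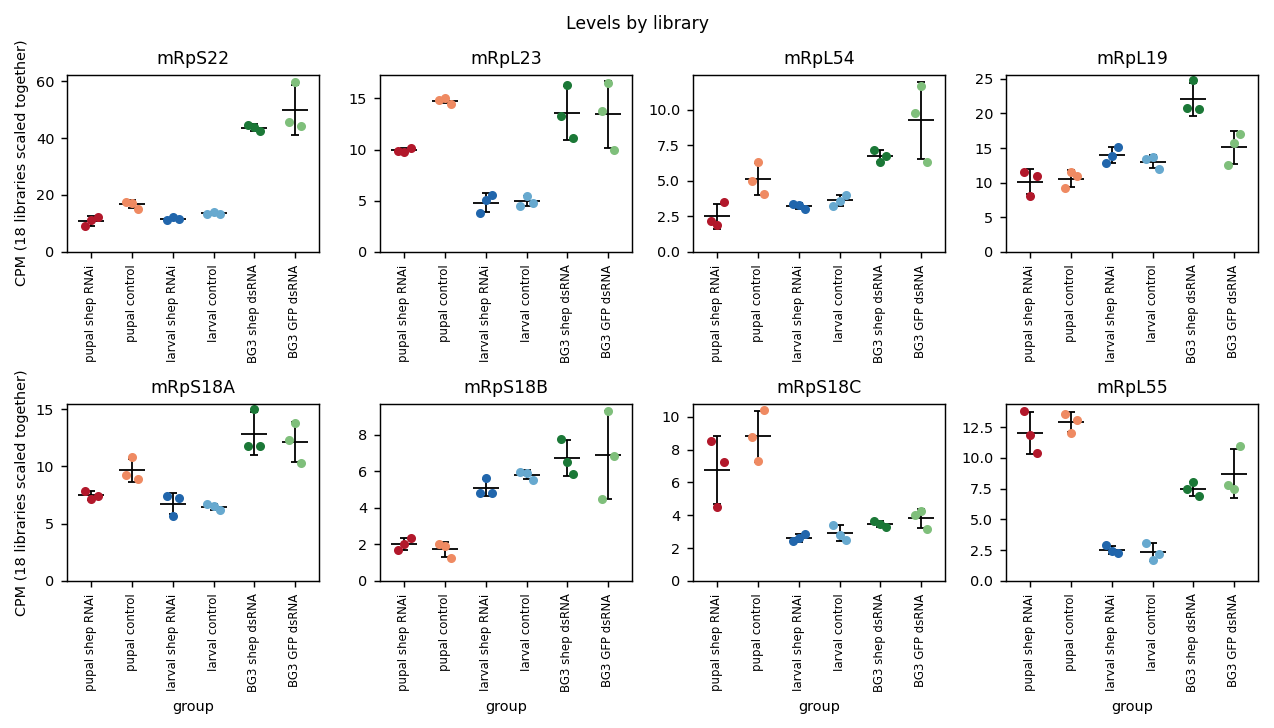
CPM of 8 members in each library, all 18 libraries scaled together, with the mean and SD of each group (n = 3). mRpS22, mRpL23 and mRpL54 lie lower in pupal RNAi than in pupal control neurons, mRpL19 lies higher in BG3 cells with shep than with GFP dsRNA, and mRpS18B and mRpS18C run in opposite directions between pupal and larval neurons.

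Finally, BG3 cells with GFP dsRNA were set against larval control neurons, with all 18 libraries in 1 model. The larval controls also serve in the stage comparison, and source, preparation and library set cannot be told apart. Markers of dividing cells summed to a median of 1480 CPM in BG3 GFP dsRNA cells and 587 CPM in larval control neurons. Those of hemocytes summed to 652 and 47.4 CPM. BG3 cells and neurons were scaled apart for these sums, so their sizes cannot be compared directly. In the model of all 18 libraries 8 of 10 markers of dividing cells rose and 1 fell (median log2 0.79). Of 4 hemocyte markers 3 rose and 1 fell (median log2 3.04), the latter being Pxn at -1.38. Their part in the members' values was not tested. Of 70 members tested 45 rose and 2 fell, where 37.0% of all genes were higher and 45.4% lower. The members' shares were 64.3% and 2.86%. The median member stood at 0.74 and the median gene at -0.23 on the log2 scale, and 67 of 70 members lay above the median gene. Both subunits had similar medians, 0.74 for the large and 0.72 for the small.

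This rise depends on the scale. In TPM the members' median log2 ratio was -0.17, with 28 above 0, while that of all genes was -0.96. Their summed TPM was 2550 ± 68.6 in BG3 GFP dsRNA cells and 2710 ± 29.6 in larval control neurons. Genes of the mitochondrial genome took 17.5% to 24.1% of all TPM in BG3 GFP dsRNA cells and 3.20% to 3.39% in larval control neurons. With the trend of each library with gene length removed, 34 members rose and 6 fell, with a median of 0.30 against -0.21 for all genes. The share of all genes called in that setting is not given here, so these counts of calls have no background. The members thus stood above the median gene on each of these scales, by 0.97 with TMM factors, 0.97 without them and 0.51 with the length trend removed.

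mRpL46 (3L:1777439-1778347), a protein of the central protuberance in mammalian mitochondrial ribosomes, had 35.5, 48.9 and 31.8 CPM in BG3 GFP dsRNA cells, against 4.83, 5.28 and 5.43 CPM in larval control neurons. The groups were far apart, with a log2 fold change of 2.90 ± 0.16 (adjusted p = 7.67e-18). mRpS35 (3L:2780899-2782105), a small-subunit protein without a bacterial counterpart, had 23.8, 35.1 and 30.8 CPM in BG3 GFP dsRNA cells and 4.90, 3.79 and 3.95 CPM in larval control neurons (log2 2.80 ± 0.17, adjusted p = 2.43e-17). mRpL14 (X:2343997-2344649), whose bacterial counterpart lies at the subunit interface, averaged 21.9 ± 4.86 CPM in BG3 GFP dsRNA cells and 5.25 ± 1.40 CPM in larval control neurons (log2 2.03). These 3 had no overlap between the groups. mRpS22 averaged 49.9 ± 8.64 CPM in BG3 GFP dsRNA cells and 13.5 ± 0.551 CPM in larval control neurons (log2 1.89). mRpL55 (log2 1.86) and mRpL21 (log2 1.67) followed. mRpL55 was among 21 members called higher both in pupal control neurons and in BG3 GFP dsRNA cells, of the 26 that rose with stage. The same larval control libraries enter both ratios, and the share of all genes called higher in both is not given here.

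mRpL13 and mRpL20 fell. mRpL13 averaged 5.38 ± 2.17 CPM in BG3 GFP dsRNA cells and 8.44 ± 0.681 CPM in larval control neurons (log2 -0.66 ± 0.23, adjusted p = 0.0101). Its groups did not overlap, but 35.2% of its exonic bases are shared with CG10602, and the call was lost without GFP dsRNA replicate 3. mRpL20, under the level asked of named genes and so named after its values were seen, averaged 1.79 ± 0.525 CPM in BG3 GFP dsRNA cells and 3.93 ± 0.361 CPM in larval control neurons (log2 -1.15, adjusted p = 0.00192). Among members other than the 8 that share at least 20% of their exonic bases, 40 of 63 rose and 1 fell here, and 21 rose and 21 fell of 62 between the stages. The 3 falls in pupal RNAi neurons and the 1 rise in BG3 cells were all in genes outside those 8. Of 81 cytosolic ribosomal protein genes 79 rose in BG3 GFP dsRNA cells over larval control neurons (median 1.20), as did 26 of 26 genes of the mitochondrial genome (median 4.69) and 46 of 74 respiratory genes (median 0.50). tko rose by 1.66, bonsai by 0.88 and CRIF by 0.68.

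**Figure D5:**
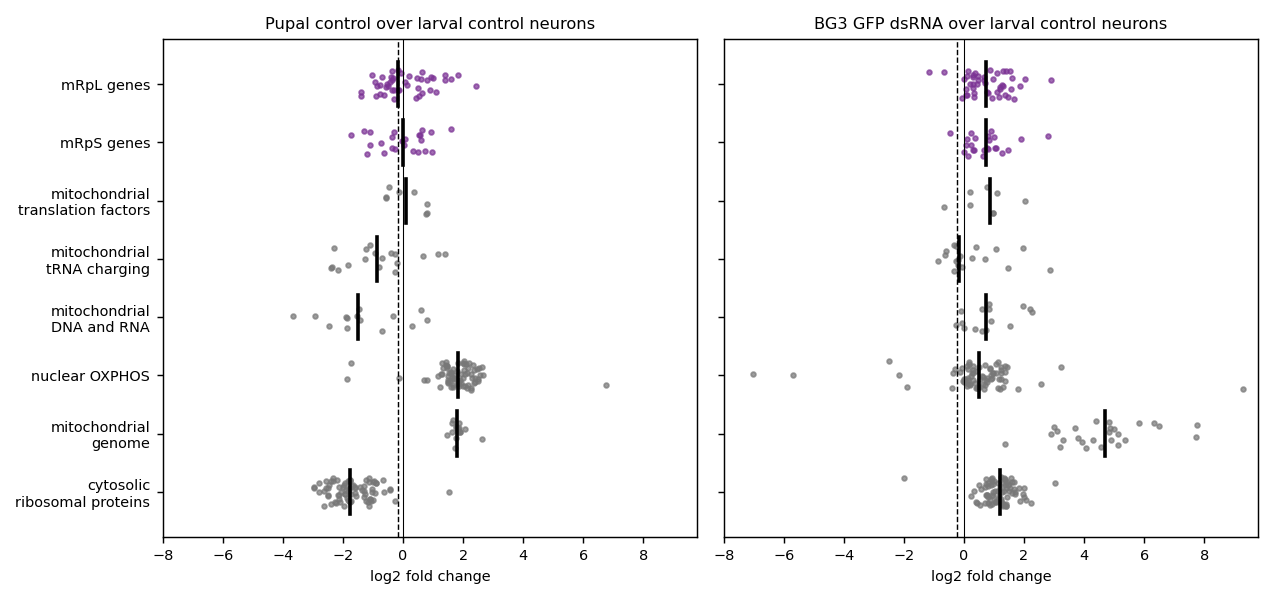
Log2 fold change of the genes of 8 lists in pupal over larval control neurons (left) and in BG3 GFP dsRNA cells over larval control neurons (right), with black bars at the medians and a dashed line at the median of all genes tested. On the left, mRpL and mRpS genes (purple) spread around the median gene between the respiratory genes at 1.84 and the cytosolic ribosomal proteins at -1.77, and on the right most lie above it.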

How the data were processed

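RNA-seq was deposited by the authors as raw whole-number counts per gene. Per the submitters' processing notes, cutadapt 1.10, HISAT2 2.0.4, featureCounts 1.5.0-p3 and the dm6 build were used. For the annotation release, the strand setting and multi-mapping reads, the treatment is not given in the sources used here. Symbols, exon lengths and coordinates came from Ensembl release 115, and 192 identifiers had no symbol.

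Counts were analysed with edgeR 4.0.16 (R 4.3.3): filterByExpr, TMM scaling and robust quasi-likelihood models of group means. The 12 neuron libraries, the 6 BG3 libraries and all 18 (BG3 against larval neurons) were fitted separately. Tests were 2-sided, and calls used an adjusted p (Benjamini-Hochberg, over all genes) under 0.05. No label ties replicates to separate animals or cultures, and a p-value then measures the spread between libraries alone, which may be technical.

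Members and lists were chosen with earlier results of these data known. Named members were the 6 largest called rises and falls per comparison with a mean of at least 5 CPM in a group, calls shared between knockdowns, members not passing the filter, and the 3 highest and lowest by TPM. Of the list entries, 3 were found only through a synonym and 3 not at all. The model steps were tested on simulated data. Alternatives used DESeq2 1.42.0, limma 3.58.1 (voom), other scalings and filters, and each library left out. Figures used Python 3.11.15 and matplotlib 3.10.9.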

Additional observations from a re-analysis of the deposited data

How the results depend on the processing

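The 12 members with the largest called changes between the stages kept their direction and passed in all 23 settings, whereas without TMM factors the stage values of mRpS18A, mRpS22 and mRpL54 turned to -0.17, -0.43 and -0.24. At an adjusted p under 0.01, 1 member fell in pupal RNAi neurons, 1 fell in BG3 GFP dsRNA cells against larval control neurons, and 0 rose in BG3 cells with shep dsRNA. The shares of all genes at that threshold are not given here. With total counts in place of TMM factors, the larval RNAi median was -0.11, and between the stages 6 members rose, 43 fell and the median was -0.89. Of all 8784 genes tested, 2272 rose and 5414 fell between the stages in that setting, with a median of -0.91. With the length trend removed, the stage median was 0.005, against -0.156 for all genes. In BG3 GFP dsRNA cells against larval control neurons 6 members then fell, without a share of all genes to set beside them. The median there was 0.30, against -0.21 for all genes. In BG3 cells with shep dsRNA, 0 members rose with DESeq2, limma-voom or libraries thinned to equal depth, and 2 fell without the filter on low counts. The shares of all genes called in these settings are not given either. Leaving out 1 library at a time gave 0 to 4 members lower with pupal RNAi. Over all genes, 319 to 895 were called in either direction in those fits. The median over members ranged from -0.101 to -0.038 for larval RNAi, from -0.05 to 0.027 for the difference between stages in the response and from -0.181 to -0.075 between the stages. In BG3 cells with shep dsRNA 0 to 1 members rose and 0 to 2 fell, where 133 to 466 of all genes were called. In BG3 GFP dsRNA cells against larval control neurons 1 to 3 members fell, with medians of 0.589 to 0.757. Over all genes, 7561 to 7928 were called there. The cause of these shifts was not tested, except that a stricter threshold calls fewer genes by construction.

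Replicate numbers were not taken as pairs, since in no comparison did every same-numbered correlation of deviations exceed 0.1. These correlations ranged from -0.166 to -0.014 for pupal RNAi, from -0.046 to 0.033 for larval RNAi, from 0.022 to 0.268 between the stages and from 0.042 to 0.113 in BG3 cells. As a hint from the data, 6 of 6 libraries correlated best with their own number in BG3 cells and 5 of 6 between the stages, against 2 of 6 in the larval and 0 of 6 in the pupal RNAi comparison. With the replicate block, 1 member rose and 2 fell in BG3 cells with shep dsRNA, 25 rose and 23 fell between the stages, and the other counts of member calls were as without it. The shares of all genes called with the block are not given here. Depth limits single members: the median member had 52 to 59 counts per BG3 GFP dsRNA library and 39 to 60 per pupal RNAi library.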
